A study of Mus musculus with 8 samples.

Results

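The genes described here encode the extracellular matrix of blood vessels, the integrins that bind it and the enzymes that remodel it, 40 genes of the 25700 with a row in each count table. They were listed by symbol and matched through their Ensembl identifiers to GENCODE release M21, which found a row for all 40. The list holds 12 basement membrane genes, 9 other matrix genes, 10 integrin subunits, 7 proteases and inhibitors and 2 crosslinking enzymes, and all 40 passed the filter on low counts. Messenger RNA was sequenced from uncultured endothelial cells that flow cytometry had sorted out of C57BL/6 mouse brains at postnatal day 6. The groups were 4 pups labelled GLUT1EC-/-, with GLUT1 deleted in endothelial cells (here KO), and 4 wild-type littermates (WT). GLUT1 carries glucose across the blood-brain barrier, and the comparison asked which endothelial transcripts differ after its deletion. The sources used here do not give the transgene that deletes the gene, the age at deletion or the sorting markers.

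Libraries held between 20.9 and 114 M counts (M for mega), and levels are given as CPM, counts per M after scaling of the library totals by TMM. By the sample titles, KO pups 1 to 4 and WT pup 5 came from the same cage and WT pups 1, 2 and 3 from another, while the file names place WT pup 3 instead of WT pup 5 with the KO pups. In KO pup 1, 13624 genes were detected, fewer than in any other library (15756 or more), and WT pup 2 was the deepest library. Slc2a1, the targeted gene, stood at 1386, 1511, 1528 and 1602 CPM in KO pups 1 to 4, against 3726, 2238, 3420 and 2792 CPM in WT pups 5, 1, 2 and 3. No KO pup reached the lowest WT pup, and the log2 fold change was -1.01 (SE 0.14, adjusted p 0.00619 by edgeR). The KO level was 0.495 times the WT level, so transcript remained, and counts per whole gene cannot show which part was deleted. The 10 endothelial markers summed to 14505 to 16347 CPM in KO and 15500 to 16392 CPM in WT, with none at 0 in any library. Of the 10, Tek (log2 fold change -0.30) and Cldn5 (-0.12) were lower and Emcn (0.20) higher in KO without overlap. That is 30% of the list, against 7.19% of all genes tested, and none of the 10 passed edgeR's test. Markers of other cell types were also present, and their values are given beside the results they touch. In such sorted populations, fewer cells of a type and less RNA per cell cannot be told apart.

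Brain capillaries rest on a basement membrane, a thin sheet built from networks of type IV collagen and laminin that are linked by nidogens and by the heparan sulphate proteoglycans perlecan and agrin. Endothelial cells and pericytes both secrete it, and integrins, which are pairs of an alpha and a beta subunit, connect it to the cytoskeleton. Matrix metalloproteinases and ADAMTS proteases cut the sheet during vessel growth, and the TIMP proteins inhibit them.

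Of the 40 genes, 3 rose in KO (Ecm1, Mmrn2 and Spp1) and 1 fell (Fndc1), and the remaining 36 did not pass the threshold of 0.05 on the adjusted p of edgeR's quasi-likelihood test. Over all 14154 genes tested, 0.389% were called, 0.276% higher and 0.113% lower. These 4 genes were named for the list with earlier results of these data known, so their share of the 40 says nothing about the matrix as a whole. The other 36 genes had a median log2 fold change of 0.015, against 0.0017 over all genes tested. Among these 36, 14 (38.9%) had an unadjusted p under 0.05, against 11.1% of all genes. The 36 were also chosen with earlier results of these data known. The 40 genes had a median coefficient of variation between pups of 10.1% in KO and 11.3% in WT. Over all genes tested these medians were 14.2% and 13.0%. The share of all genes is therefore not a like-for-like background for the list. DESeq2, which called 2.36% of its genes (1.15% higher, 1.21% lower), called Fn1 and Itga2 lower besides the same 4, and limma-voom, which called 0.509% of genes, called the same 4. KO and WT values did not overlap for 7 of the 40 genes, including 3 of those 36 (Fn1, Itga2 and Mmp15, all lower in KO), where 7.19% of all genes did not overlap (3.77% higher, 3.43% lower).

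**Figure D1:**
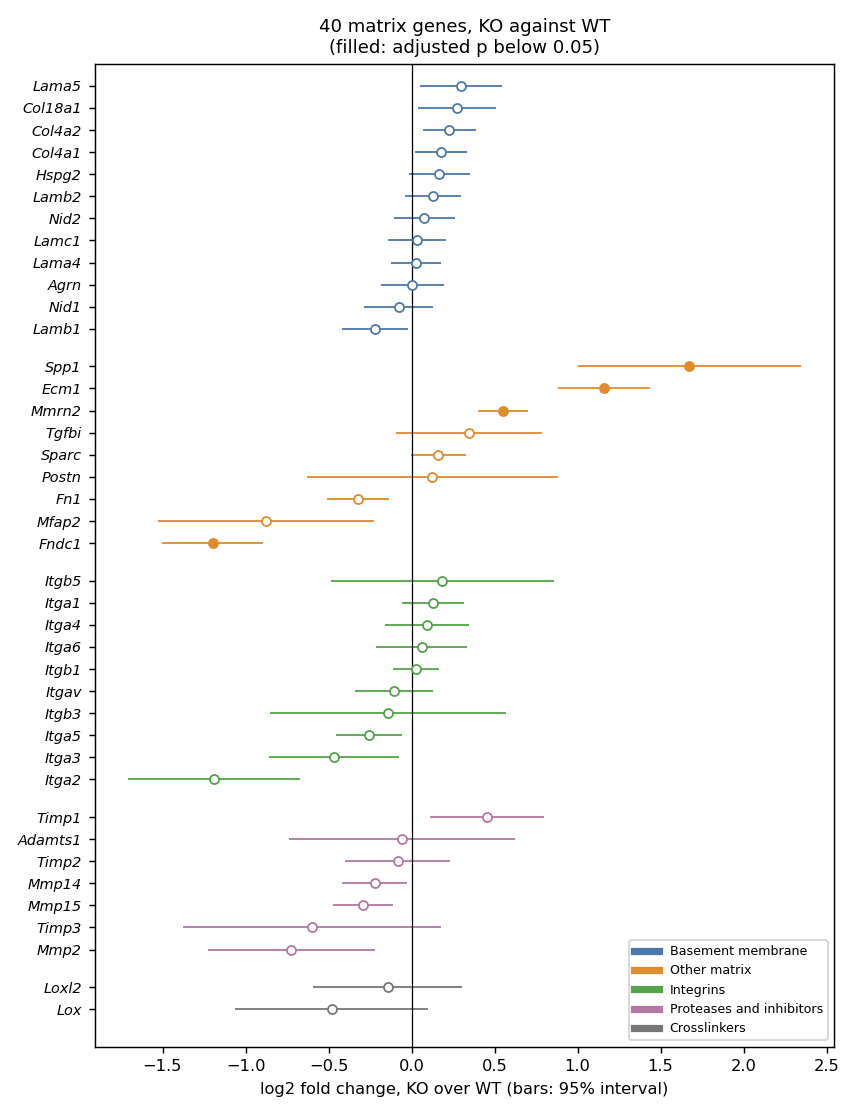
Log2 fold change of each of the 40 genes, KO over WT (4 pups each), by role, with the 95% interval from the edgeR fit; filled points passed an adjusted p of 0.05. The 4 filled points are Spp1, Ecm1 and Mmrn2, at 1.67, 1.16 and 0.55, and Fndc1, at -1.20, and all lie among the other matrix genes.

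Ecm1 (extracellular matrix protein 1; ENSMUSG00000028108, GRCm38 chromosome 3, 95734147 to 95739569, minus strand) encodes a secreted glycoprotein that binds perlecan and other matrix proteins. It measured 527, 522, 480 and 363 CPM in KO pups 1 to 4, against 215, 244, 181 and 208 CPM in WT pups 5, 1, 2 and 3. Every KO pup lay above every WT pup, and KO pup 4 was the lowest of the KO pups. Averages of 473 ± 76.1 CPM in KO against 212 ± 26.0 CPM in WT (SD over 4 pups) gave a 2.23-fold difference. On the log2 scale this was 1.16 (SE 0.13, interval at 95% from 0.88 to 1.44, adjusted p 0.00189). Scaled to exon length, Ecm1 had 249 CPM per kb in KO and 112 CPM per kb in WT, and it stood in place 6 among the 40 genes in KO and in place 10 in WT.

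Of 6 astrocyte markers, 5 had a log2 fold change above 0, the sign of Ecm1, Mmrn2 and Spp1, with a median of 1.06 over the 6. None passed the adjusted threshold, and the unadjusted p was under 0.05 for 5, of which Gja1 was lower. Gfap measured 31.3, 65.1, 17.8 and 41.5 CPM in KO pups 1 to 4, against 15.8, 13.4, 5.41 and 23.9 CPM in WT pups 5, 1, 2 and 3 (log2 fold change 1.43, adjusted p 0.237). Aqp4 and Aldh1l1 had log2 fold changes of 1.13 and 1.03, and Gja1, the most abundant of the 6, of -0.23. The groups overlapped for all 6, the sums were 303 to 399 CPM in KO and 311 to 369 CPM in WT, and no marker was at 0 in any library. Gja1 made up most of the sum in every pup, at 234 to 303 CPM in KO and 270 to 334 CPM in WT. The sums therefore say little about the 5 markers above 0. The part of astrocytes in the results for Ecm1, Mmrn2 and Spp1 was not tested.

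The promoter window of Ecm1 is shown because it belongs to a gene of the list that rose, with RefSeq sequence of GRCm38.p6 from 250 bases before to 30 after the transcript start (chr3:95739540-95739819, minus strand). Capitals mark a match to TGANTCA, the letters of an AP-1 site, that begins 64 bases before the start and a match to TATAAA, the TATA box letters, that begins 27 bases before it.
Ecm1: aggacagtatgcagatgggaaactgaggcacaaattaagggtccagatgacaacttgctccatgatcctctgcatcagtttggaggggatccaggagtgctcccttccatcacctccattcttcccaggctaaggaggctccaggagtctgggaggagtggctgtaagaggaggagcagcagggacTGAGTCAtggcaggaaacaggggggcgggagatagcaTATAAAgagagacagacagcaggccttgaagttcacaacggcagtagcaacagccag
Both strands were searched, and matches of different motifs were allowed to overlap. Of the 32851 windows of all genes, 7.46% held TGANTCA and 13.1% held TATAAA. The E-box CACGTG (6.79% of windows), TGANNTCA (13.4%) and the core letters of the p53 site (0.69%) had no match in it.

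Mmrn2 (multimerin 2; ENSMUSG00000041445, chromosome 14, 34375465 to 34404287, plus strand) encodes a matrix glycoprotein made by endothelial cells that binds the endothelial surface receptors CD93 and CLEC14A. It measured 507, 485, 482 and 506 CPM in KO pups 1 to 4, against 345, 320, 366 and 321 CPM in WT pups 5, 1, 2 and 3. The KO pups were tightly grouped (coefficient of variation 2.70% in KO and 6.55% in WT) and all lay above the WT pups. The log2 fold change was 0.55 (SE 0.07, 95% CI 0.40 to 0.70, adjusted p 0.00418), or 1.46-fold. Its receptors did not pass: Cd93 averaged 1908 ± 88.9 CPM in KO pups and 1852 ± 121 in WT pups, a log2 fold change of 0.043. Clec14a averaged 373 ± 44.3 CPM in KO pups and 519 ± 139 in WT pups, a log2 fold change of -0.48 (adjusted p 0.295). The paralogue Mmrn1 had a log2 fold change of -0.41 and did not pass either (adjusted p 0.506).

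Spp1 (osteopontin; ENSMUSG00000029304, chromosome 5, 104435118 to 104441050, plus strand) encodes a secreted phosphoprotein that binds integrins and CD44 and is also made by macrophages and microglia. It measured 17.4, 20.8, 28.6 and 52.5 CPM in KO pups 1 to 4, against 10.8, 10.02, 7.39 and 9.54 CPM in WT pups 5, 1, 2 and 3. The groups did not overlap, but the KO pups differed 3.03-fold among themselves, and KO pup 4 was far above the others. Averages of 29.8 ± 15.9 CPM in KO against 9.44 ± 1.46 CPM in WT gave a log2 difference of 1.67 (SE 0.31, interval at 95% from 1 to 2.34, adjusted p 0.0483). Leaving out KO pup 4 lowered the log2 fold change to 1.24, and the call was lost without KO pup 2, KO pup 3 or any 1 of the 4 WT pups.

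Markers of myeloid cells were present in the same libraries. The 10 microglial markers summed to 531 to 1472 CPM in KO and 559 to 932 CPM in WT, and the 6 markers of border macrophages to 715 to 1772 CPM in KO and 627 to 955 CPM in WT. Both sums were highest in KO pup 3 and next highest in KO pup 4, none of the markers was at 0 in any library, and none passed the test. All 10 microglial and all 6 macrophage markers had a log2 fold change above 0, with medians of 0.23 and 0.41. In edgeR the unadjusted p was under 0.05 for 3 of the 6 macrophage markers (50%) and 1 of the 10 microglial markers (10%). Over all genes tested that share was 11.1%. The part of these cells in the Spp1 result was not tested. A predicted gene on the same strand, Gm42793, shares 18.8% of the exon bases of Spp1 and measured at most 3.51 CPM, in KO pup 4. Its log2 fold change was 1.80 and did not pass edgeR's test (adjusted p 0.239). Strand cannot separate reads in the shared bases.

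The integrin subunits and other receptors known to bind osteopontin did not pass. Itgav had a log2 fold change of -0.11, Itgb5 of 0.19, Itga4 of 0.093 and Itga9 of -0.23. Itgb3, whose subunit pairs with alpha V, was the lowest of the 40 genes per exon length, at 0.390 CPM per kb in KO and 0.432 CPM per kb in WT. Cd44, a receptor for hyaluronan and osteopontin, measured 6.91, 8.29, 8.54 and 8.57 CPM in KO pups 1 to 4, against 6.19, 5.72, 4.06 and 5.83 CPM in WT pups 5, 1, 2 and 3. Its groups did not overlap, but the log2 fold change of 0.57 (SE 0.20) did not pass the test (adjusted p 0.285).

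Fndc1 (ENSMUSG00000071984, chromosome 17, 7738569 to 7827302, minus strand) encodes a protein with fibronectin type III domains. It measured 86.4, 79.4, 79.7 and 88.8 CPM in KO pups 1 to 4, against 228, 137, 217 and 184 CPM in WT pups 5, 1, 2 and 3. All KO pups lay below all WT pups, and the WT pups were more spread out, with pups 5 and 2 highest. Averages of 83.6 ± 4.76 CPM in KO against 192 ± 40.8 CPM in WT gave a log2 difference of -1.20 (SE 0.14, interval at 95% from -1.5 to -0.89, adjusted p 0.00292). The KO level was thus 0.436 times the WT level.

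Transcripts of the choroid plexus, the epithelium that secretes cerebrospinal fluid, were highest in sum in WT pups 5 and 2. The 5 choroid plexus markers summed to 82.6, 130, 15.9 and 290 CPM in KO pups 1 to 4, against 1865, 444, 875 and 363 CPM in WT pups 5, 1, 2 and 3. The sums did not overlap, but Ttr made up most of them in every pup, and the other 4 markers overlapped between the groups. Kl and Kcnj13 were at 0 in at least 1 library, and none of the 5 passed the test. In edgeR 3 of the 5 (60%) had an unadjusted p under 0.05, against 11.1% of all genes. The 10 fibroblast markers, at 107 to 268 CPM in KO and 122 to 277 CPM in WT, overlapped between the groups, and Slc22a6 was at 0 in at least 1 library. The part of these cells in the Fndc1 result was not tested.

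The promoter windows of Spp1 and Fndc1 are shown as those of the other called genes that have an entry, drawn as above (Spp1 at the more upstream of its listed starts, chr5:104434861-104435140, plus strand; Fndc1 at chr17:7827273-7827552, minus strand). Capitals mark the single motif match in each, TATAAA on either strand, 211 bases before the start in Spp1 and 219 before it in Fndc1.
Spp1: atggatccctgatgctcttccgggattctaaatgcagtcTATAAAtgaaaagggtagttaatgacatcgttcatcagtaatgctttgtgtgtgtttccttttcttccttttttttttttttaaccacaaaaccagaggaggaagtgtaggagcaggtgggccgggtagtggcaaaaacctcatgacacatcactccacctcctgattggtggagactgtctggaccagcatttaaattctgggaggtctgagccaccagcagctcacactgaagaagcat
Fndc1: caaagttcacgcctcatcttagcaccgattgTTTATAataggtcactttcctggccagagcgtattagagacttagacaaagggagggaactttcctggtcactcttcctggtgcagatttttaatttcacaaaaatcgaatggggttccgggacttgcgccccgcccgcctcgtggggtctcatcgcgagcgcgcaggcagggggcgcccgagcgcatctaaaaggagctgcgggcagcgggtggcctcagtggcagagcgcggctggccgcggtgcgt
Of the 30 genes of the list with a window, 5 held TATAAA (Adamts1, Ecm1, Fndc1, Postn and Spp1), against 15.1% of 27025 genes with a window, and 2 held TGANTCA (Ecm1 and Itga3), against 8.6%.

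**Figure D2:**
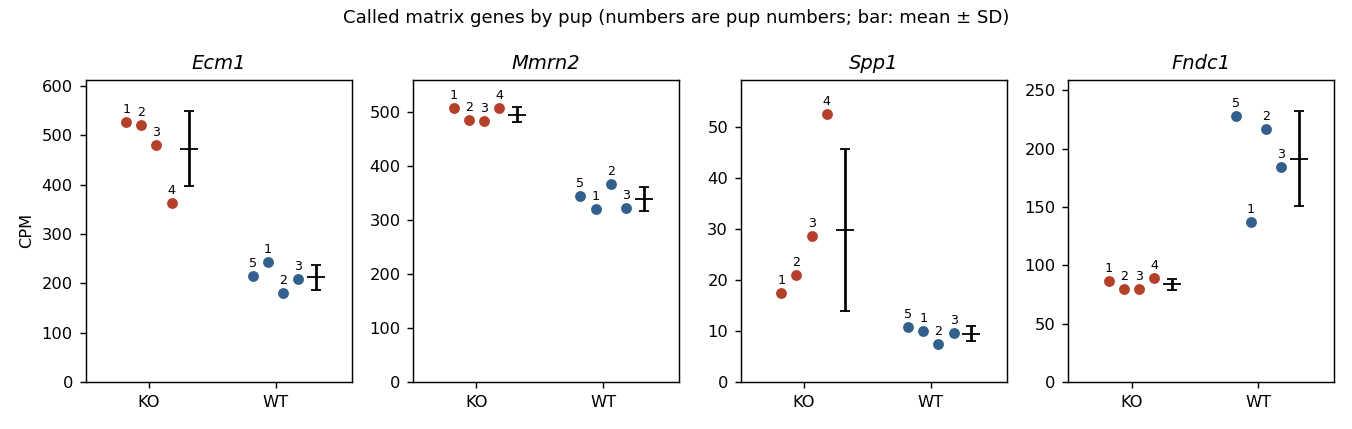
CPM in each KO pup (left) and each WT pup (right) for the 4 called genes, labelled by pup number, with mean ± SD beside the points; axes start at 0. KO and WT pups do not overlap for any of the 4 genes, and Spp1 in KO pup 4 (52.5 CPM) stands apart from the other KO pups.

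Cage and genotype were nearly confounded, and the calls depended on how cage was handled. By either reading all KO pups shared a cage with 1 WT pup, and fits that account for cage compare them with that pup alone. It was WT pup 5 by the titles, the highest WT pup for Fndc1 (228 CPM), and WT pup 3 by the file names. The fit within the cage of the titles and the fit with that cage as a term thus make the same comparison. Among the pups that share a cage by title, 1 WT pup stands for its group and is assumed to vary like the KO pups. There the log2 fold changes were 1.13 for Ecm1 (adjusted p 0.126), 0.52 for Mmrn2 (0.151), 1.47 for Spp1 (0.693) and -1.45 for Fndc1 (0.00212), with signs that the absence of overlap had already fixed. That fit called 0.145% of its genes (0.0659% higher, 0.0791% lower), and 6.51% had an unadjusted p under 0.05. With the cage of the titles as a term, Fndc1 passed (adjusted p 0.0207) and Ecm1, Mmrn2 and Spp1 did not, where 0.113% of genes were called (0.0707% higher, 0.0424% lower) and 7.09% had an unadjusted p under 0.05. With the cage of the file names as a term, none of the 40 passed and 11 had an unadjusted p under 0.05, against 0.0707% of all genes called, all higher (0% lower), and 5.36% unadjusted.

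Leaving out 1 pup at a time, Ecm1, Mmrn2 and Fndc1 passed in all 8 fits. Over all genes those fits called between 0.172% (without KO pup 2) and 0.411% (without KO pup 1) higher and between 0.0412% (without KO pup 3) and 0.191% (without WT pup 3) lower. With the pup number as a block, Ecm1 alone of the 40 passed, where 0.0777% of genes were called, all higher. KO pup 4 and WT pup 5 have no same-numbered pup in the other group. That fit thus compares pups 1 to 3 of each group alone.

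Among the basement membrane genes, the type IV collagen chains were the most abundant. Col4a1 and Col4a2 measured 676 ± 43.9 and 636 ± 48.9 CPM per kb in KO and 598 ± 34.2 and 544 ± 29.7 CPM per kb in WT (SD, n = 4 each). Sparc, which encodes a collagen-binding glycoprotein, stood above them in both groups and Fn1 in WT. Sparc was at 2872 ± 158 CPM per kb in KO and 2571 ± 215 CPM per kb in WT. Agrn, Nid1, Lamc1 and Lama4 followed, between 135 and 243 CPM per kb in WT. Lama5, the other endothelial laminin alpha chain, was the least abundant of the 12, at 26.4 ± 4.66 CPM per kb in KO and 21.4 ± 0.99 CPM per kb in WT.

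**Figure D3:**
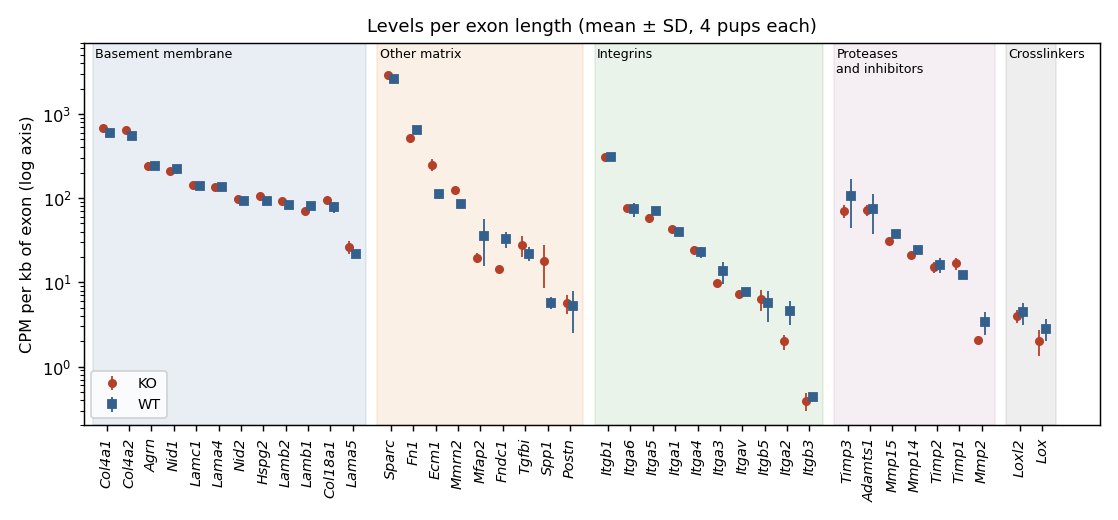
Level of each of the 40 genes in CPM per kb of exon on a log axis, mean ± SD over 4 KO pups (circles) and 4 WT pups (squares), grouped by role. Levels range from Sparc at 2872 in KO and 2571 in WT to Itgb3 at 0.390 in KO and 0.432 in WT.

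None of the 12 basement membrane genes passed edgeR's test, DESeq2 or limma-voom, and 5 (41.7%) had an unadjusted p under 0.05, against 11.1% of all genes. The log2 fold changes of the 12 were small, between -0.22 (Lamb1) and 0.30 (Lama5), with a median of 0.10 against 0.0017 over all genes. Of the 12, 10 were above 0 and 16.7% below 0, where 49.7% of all genes were below 0. Col4a2 had the smallest p. It measured 4495, 3962, 4200 and 3764 CPM in KO pups 1 to 4, against 3782, 3488, 3377 and 3376 CPM in WT pups 5, 1, 2 and 3. The groups overlapped, since WT pup 5 lay above KO pup 4, and the log2 fold change was 0.23 (SE 0.07, 95% CI 0.07 to 0.39, adjusted p 0.249). Col4a1 measured 4699.9 CPM in KO pup 1 and 4139, 4732 and 4323 CPM in KO pups 2 to 4, against 4293, 3848, 3819 and 3858 CPM in WT pups 5, 1, 2 and 3. WT pup 5 was again the highest WT pup and lay above KO pup 2, and the log2 fold change was 0.18 (SE 0.07, adjusted p 0.368). The ratio of Col4a1 to Col4a2 per exon length was 1.06 ± 0.0528 in KO and 1.10 ± 0.0168 in WT (exact two-sided permutation p = 0.314).

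Both chains are transcribed from neighbouring starts on opposite strands, and the window of Col4a1 is shown because it holds the starts of both (RefSeq, GRCm38.p6, chr8:11312797-11313076, minus strand). Capitals mark the 22 bases between the starts, which both annotated first exons cover, so a read there cannot be assigned without its strand.
Col4a1: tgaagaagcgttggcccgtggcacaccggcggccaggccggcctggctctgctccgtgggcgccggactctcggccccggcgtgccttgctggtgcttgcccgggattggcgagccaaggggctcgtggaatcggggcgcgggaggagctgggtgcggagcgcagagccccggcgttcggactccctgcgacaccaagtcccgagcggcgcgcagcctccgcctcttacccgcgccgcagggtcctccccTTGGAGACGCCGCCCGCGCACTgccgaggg
The window has a GC content of 74.6% and 36 CG dinucleotides, against medians of 52.5% and 6 over all windows, and none of the searched motifs had a match in it.

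Lama5 measured 327, 361, 267 and 246 CPM in KO pups 1 to 4, against 244, 252, 252 and 228 CPM in WT pups 5, 1, 2 and 3. KO pups 1 and 2 stood apart from the remaining 6 pups, and the log2 fold change of 0.30 (SE 0.11) did not pass (adjusted p 0.345). Col18a1, the source of the fragment endostatin, measured 644, 580, 667 and 672 CPM in KO pups 1 to 4, against 538, 540, 618 and 422 CPM in WT pups 5, 1, 2 and 3. The groups overlapped through WT pup 2, and the log2 fold change was 0.28 (SE 0.11, adjusted p 0.361). Lamb1 had the lowest log2 fold change of the set, at -0.22 (SE 0.09, adjusted p 0.395), with 408 ± 40.9 CPM in KO and 475 ± 42.1 CPM in WT. The linker genes Nid1, Nid2, Hspg2 (perlecan) and Agrn had log2 fold changes of -0.078, 0.077, 0.17 and 0.0045. The laminin chain genes Lama4, Lamb2 and Lamc1 stood at 0.026, 0.13 and 0.031, with 95% intervals of -0.13 to 0.18, -0.039 to 0.30 and -0.14 to 0.21.

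Of the 5 remaining matrix genes, Mfap2, Tgfbi and Postn varied more between pups than Fn1 and Sparc. Fn1, which encodes fibronectin, measured 4815, 4637, 4225 and 3892 CPM in KO pups 1 to 4, against 5995, 5688, 5139 and 5132 CPM in WT pups 5, 1, 2 and 3. Every KO pup lay below every WT pup, with a log2 fold change of -0.32 (SE 0.08, 95% CI -0.51 to -0.14), which did not pass in edgeR (adjusted p 0.168) and passed in DESeq2 (adjusted p 0.0254). Sparc measured 8214, 8066, 7732 and 7244 CPM in KO pups 1 to 4, against 7049, 7534, 6171 and 7231 CPM in WT pups 5, 1, 2 and 3. KO pup 4 lay within the WT range, and the log2 fold change of 0.16 (SE 0.08) did not pass (adjusted p 0.471). Mfap2, a protein of elastic microfibrils, measured 26.4, 21.8, 19.4 and 21.0 CPM in KO pups 1 to 4, against 75.4, 31.95, 26.0 and 30.1 CPM in WT pups 5, 1, 2 and 3. WT pup 5 was 2.9 times as high as the lowest WT pup, and the log2 fold change of -0.88 (SE 0.30) did not pass (adjusted p 0.275). It passed among the pups that share a cage by title (-1.77, adjusted p 0.00808) and with that cage as a term, fits in which WT pup 5 alone shares the cage of the KO pups, but not with the cage of the file names (-0.44, adjusted p 0.9995). Tgfbi, which encodes an RGD-containing matrix protein, and Postn (periostin) had log2 fold changes of 0.35 and 0.13 and did not pass.

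Postn, Itgb5 and Loxl2 were lowest among the WT pups in pup 2, at 7.37, 8.95 and 16.3 CPM. The 10 mural cell markers were also lowest in that pup, where KO pups summed to 1580 to 2388 CPM, WT pup 2 to 428 CPM and the other WT pups to 1236 to 2401 CPM. The part of mural cells in these levels was not tested. WT pup 2 was the lowest WT pup for 15 of the 40 genes (37.5%) and for 27.9% of all genes tested. Ecm1 and Spp1, but not Mmrn2 or Fndc1, were among the 15, as were Col4a1, Sparc and Nid1.

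Of the 10 integrin subunits, none passed edgeR's test or limma-voom and 1 (Itga2) passed in DESeq2. An unadjusted p under 0.05 was found for 3 (30%), against 11.1% of all genes tested. Itgb1, the common beta subunit, was the most abundant, at 1205, 1210.1, 1161 and 1159 CPM in KO pups 1 to 4, against 1155, 1185, 1219.9 and 1084 CPM in WT pups 5, 1, 2 and 3. The groups overlapped almost fully, with a log2 fold change of 0.028 and a 95% CI of -0.11 to 0.17. Per exon length, Itgb1 was 1.45 ± 0.0449 times the summed level of Itga1 to Itga6 in KO and 1.36 ± 0.0967 times in WT (exact two-sided permutation p = 0.200).

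Itga2, the alpha subunit of a collagen receptor, measured 10.3, 13.7, 16.2 and 16.5 CPM in KO pups 1 to 4, against 32.7, 33.4, 44.2 and 19.1 CPM in WT pups 5, 1, 2 and 3. The groups did not overlap, although WT pup 3 lay close to the KO pups. The log2 fold change was -1.19 (SE 0.24, 95% CI -1.71 to -0.67) with an adjusted p of 0.0681, and it passed with no filter on low counts (adjusted p 0.0292; 0.452% of genes called, 0.204% lower) and without WT pup 3 (-1.37, adjusted p 0.0116). With the cage of the file names as a term it was -0.43 (adjusted p 0.9995), and leaving out KO pup 1 and WT pup 2 together gave -0.87 (adjusted p 0.134). Itga1, the alpha subunit of the other main collagen receptor, was far more abundant, at 43.5 CPM per kb in KO and 39.9 CPM per kb in WT, against 1.99 and 4.55 CPM per kb for Itga2 in KO and WT. Its log2 fold change was 0.13 (SE 0.09, adjusted p 0.642).

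Itga5, the alpha subunit of the main fibronectin receptor, measured 301, 250, 241 and 227 CPM in KO pups 1 to 4, against 310, 311, 313 and 284 CPM in WT pups 5, 1, 2 and 3. The groups overlapped only through KO pup 1 and WT pup 3, and the log2 fold change of -0.26 (SE 0.09) did not pass (adjusted p 0.303). The ratio of Fn1 to Itga5 per exon length was 8.94 ± 0.536 in KO and 9.32 ± 0.635 in WT (exact two-sided permutation p = 0.429). Itga3, a laminin receptor subunit, measured 55.8, 46.6, 52.5 and 52.6 CPM in KO pups 1 to 4, against 90.8, 50.5, 88.8 and 57.2 CPM in WT pups 5, 1, 2 and 3. WT pups 5 and 2 stood apart from the remaining 6 pups, and the log2 fold change of -0.47 (SE 0.18) did not pass (adjusted p 0.345). Itga6, the more abundant laminin receptor subunit, had a log2 fold change of 0.060 with a 95% CI of -0.21 to 0.33.

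**Figure D4:**
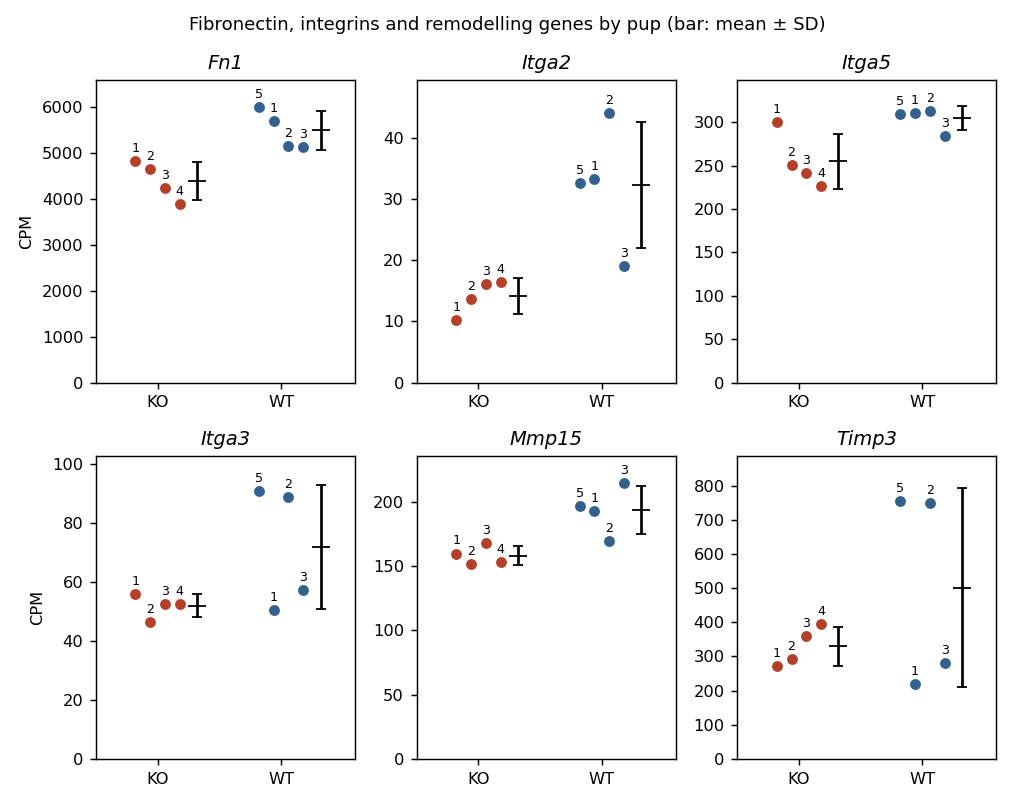
CPM in each KO pup (left) and each WT pup (right) for Fn1, Itga2, Itga5, Itga3, Mmp15 and Timp3, labelled by pup number, with mean ± SD beside the points; axes start at 0. Fn1, Itga2 and Mmp15 do not overlap between groups, and WT pups 5 and 2 stand apart for Itga3 (90.8 and 88.8 CPM) and Timp3 (755 and 750 CPM).

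Of the 7 proteases and inhibitors, none passed edgeR's test, DESeq2 or limma-voom, and 4 (57.1%) had an unadjusted p under 0.05, against 11.1% of all genes. Timp1 was the single gene of the 7 with a log2 fold change above 0, and the median was -0.22. Below 0 were 85.7% of the 7 and 49.7% of all genes tested. Mmp15, a membrane-anchored metalloproteinase, measured 160, 152, 168 and 153 CPM in KO pups 1 to 4, against 197, 193, 169 and 215 CPM in WT pups 5, 1, 2 and 3. The groups were separated by a narrow gap between KO pup 3 and WT pup 2, and the log2 fold change was -0.29 (SE 0.08, adjusted p 0.196). Mmp14, which encodes the membrane-anchored activator of the Mmp2 product, had a log2 fold change of -0.22 (SE 0.09, adjusted p 0.370).

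Mmp2, the secreted gelatinase, measured 7.24, 6.42, 5.43 and 6.47 CPM in KO pups 1 to 4, against 12.5, 7.15, 14.0 and 8.62 CPM in WT pups 5, 1, 2 and 3. WT pups 5 and 2 were again the highest, and the log2 fold change of -0.72 (SE 0.23) did not pass (adjusted p 0.245). Timp1, a secreted inhibitor, measured 17.99, 15.04, 12.3 and 14.4 CPM in KO pups 1 to 4, against 10.4, 11.4, 12.3 and 9.38 CPM in WT pups 5, 1, 2 and 3. The groups overlapped by a small margin, and the log2 fold change was 0.45 (SE 0.16, adjusted p 0.290).

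Timp3, an inhibitor that stays bound to the matrix, was the most abundant of these genes per exon length in WT, at 106 CPM per kb, and stood just under Adamts1 in KO. It measured 273, 293, 359 and 396 CPM in KO pups 1 to 4, against 755, 219, 750 and 280 CPM in WT pups 5, 1, 2 and 3. WT pups 5 and 2 lay above all KO pups, WT pup 1 below them and WT pup 3 within their range. The log2 fold change was -0.60 (SE 0.35, 95% CI -1.38 to 0.18, adjusted p 0.586). Adamts1 ranged from 304 to 411 CPM in KO and from 145 to 588 CPM in WT, a log2 fold change of -0.058 (SE 0.31). Timp2 had a log2 fold change of -0.084 (SE 0.14).

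The crosslinking enzymes Lox and Loxl2, which join collagen and elastin chains, were scarce. Lox measured 9.21, 7.71, 7.31 and 14.3 CPM in KO pups 1 to 4, against 16.2, 11.4, 17.5 and 8.97 CPM in WT pups 5, 1, 2 and 3. Loxl2 measured 19.7, 19.2, 20.6 and 27.03 CPM in KO pups 1 to 4, against 20.6, 26.5, 16.3 and 32.5 CPM in WT pups 5, 1, 2 and 3. The groups overlapped for both genes, with log2 fold changes of -0.48 (SE 0.26) and -0.14 (SE 0.20). Neither passed edgeR's test, DESeq2 or limma-voom, or had an unadjusted p under 0.05.

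WT pups 5 and 2 were the highest pair of WT pups for 10 of the 40 genes (25.0%) and for 19.8% of all genes tested. Among the 10 were Fndc1, Mmrn2, Itga3, Itga6, Mmp2, Timp3 and Lox. These pups also had the highest choroid plexus sums, given above.

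**Figure D5:**
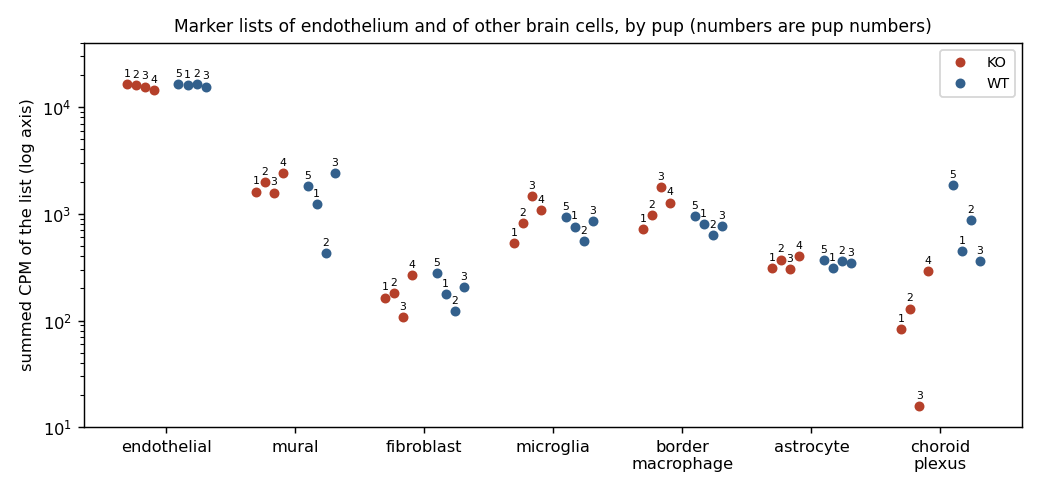
Summed CPM of the marker lists of endothelium and of 6 other cell populations in each KO pup (left of each pair) and each WT pup (right), on a log axis, labelled by pup number. Endothelial sums lie between 14505 and 16392 CPM in all 8 pups, WT pup 2 is lowest for mural markers (428 CPM), and choroid plexus sums are 15.9 to 290 CPM in KO and 363 to 1865 CPM in WT.

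Beyond the 40 genes, 146 further matrix, integrin and remodelling genes were listed in 8 groups, of which 140 passed the filter. In edgeR 1 of the 140 (0.714%) fell and none rose, where 0.113% of all genes were called lower and 0.276% higher. The unadjusted p was under 0.05 for 32 (22.9%), against 11.1% of all genes. The median log2 fold change of the 140 was -0.11, against 0.0017 over all genes tested. The gene that fell was Kank1, which encodes a talin-binding protein at the rim of focal adhesions, the contacts that tie integrins to actin. Kank1 measured 33.5, 51.8, 46.9 and 50.9 CPM in KO pups 1 to 4, against 76.2, 94.98, 78.9 and 89.6 CPM in WT pups 5, 1, 2 and 3. All KO pups lay below all WT pups, with a log2 fold change of -0.89 (SE 0.14, 95% CI -1.19 to -0.59, adjusted p 0.0165). The call was lost in 6 of 19 other settings, with adjusted p between 0.0577 and 0.499 and log2 fold changes between -1.01 and -0.73. These were leaving out KO pup 3 or WT pup 1, both cage terms, the pups that share a cage by title, and the pup-number block. It held without KO pup 1 and WT pup 2 together (-0.80), where 0.182% of all genes were called lower.

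All 17 tested adaptors of integrins to actin had a log2 fold change below 0, with a median of -0.18, and KO and WT did not overlap for 5 of them (Kank1, Vcl, Ilk, Pxn and Zyx), all lower in KO, against 3.43% of all genes lower without overlap. Vcl, which encodes vinculin, measured 206, 193, 198 and 197 CPM in KO pups 1 to 4, against 253, 263, 242 and 230 CPM in WT pups 5, 1, 2 and 3. Its log2 fold change was -0.31 (SE 0.07), with an adjusted p of 0.0832 in edgeR, and it passed in DESeq2. Over all genes tested, 49.7% had a log2 fold change below 0.

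In the other 7 groups no gene passed edgeR's test, and the gene with the smallest p is given for 6 of them. Eln, which encodes elastin, averaged 532 ± 77.1 CPM in KO pups and 967 ± 313 in WT pups, a log2 fold change of -0.86 (adjusted p 0.123), with WT pups 5 and 2 at 1131 and 1309 CPM. Col4a3, a type IV collagen chain of specialised basement membranes, averaged 8.56 ± 3.06 CPM in KO pups and 17.1 ± 4.22 in WT pups, a log2 fold change of -0.997 (adjusted p 0.152). Lama1 averaged 135 ± 11.7 CPM in KO pups and 199 ± 43.1 in WT pups, and its groups did not overlap (log2 fold change -0.56, adjusted p 0.141). Sdc4 (syndecan 4) had a log2 fold change of 0.78, Pxdn (peroxidasin, a collagen IV crosslinker) of -0.31 and the leukocyte integrin subunit Itgam of 0.67. DESeq2 called 3 of the listed genes higher (Sdc4, Htra1 and Mmp12) and 9 lower, among them Eln, Col4a3, Lama1, Vcl, Kank1, Tgm2, Sparcl1 and Fbln5, against 1.15% higher and 1.21% lower over all its genes. Mmp12 did not pass the filter of the edgeR fit, with 15, 5, 1 and 19 counts in KO pups 1 to 4, against 0, 0, 0 and 1 in WT pups 5, 1, 2 and 3.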

How the data were processed

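The values the authors deposited are raw counts of reads per gene, 1 file for each of the 8 libraries. The tools STAR and featureCounts and the build GRCm38 are named in the submitters' processing notes, without versions. The annotation and strand setting of the counting were not stated in the sources used here, so genes on opposite strands that overlap could not be separated. Per the labels' protocols, libraries were stranded and read single-end.

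Genes with a minimum count of 10 by filterByExpr (14154 genes) were analysed in R 4.3.3 by edgeR 4.0.16, with TMM scaling, genotype as the only term, the quasi-likelihood F test and Benjamini-Hochberg adjustment over all tested genes. Exon lengths are unions of exons in GENCODE M21 basic. Single ratios were compared by a two-sided exact permutation test over 70 assignments, which can go no lower than 0.0286. For a gene without reads the upper limit is 3 counts, at most 0.144 CPM per library, and covers counting error only. The labels call WT pups littermates without giving the litters. The p-values set the difference between groups against the spread between these pups. As all KO pups shared 1 cage, that spread does not fully cover differences between cages or litters. In simulated counts over 13909 genes, the fit called 92.2% of genes changed 2-fold and 56.4% of those changed 1.5-fold. Changes were put only into genes with log2 CPM above 3, and Itgb3 (1.29) lies under that. The simulated libraries held no differences by cage or cell content, so these shares do not carry over to each of the 40 genes.

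The genes, lists and tests were chosen with earlier results of these data known. Genes given in full are Ecm1, Mmrn2, Spp1, Fndc1, the 3 with the smallest p and the most abundant in each role, and any called gene. Of the further lists, called genes and the smallest p in each are named, except for 1 gene that is not reported here. Other genes given with values were chosen after those were seen. Alternatives changed the scaling, the filter, the test (DESeq2 1.42.0, limma-voom 3.58.1), the cage term, the pup-number block and the libraries.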

Additional observations from a re-analysis of the deposited data

Results flagged for a closer look

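In 82 groups of 4 pups (40 genes and Slc2a1, KO and WT apart), 7 had a pup set apart from the other 3 by more of the group's range than Dixon's 95% critical value allows, where chance gives about 1 in 20. WT pup 5 was the high one for Col4a1 (4293.1 CPM), Mfap2 (75.4 CPM), Itgb3 (2.6 CPM) and Timp2 (78.2 CPM). The low ones were WT pup 2 for Nid1 (1100.1 CPM) and WT pup 3 for Itga5 (284 CPM), and KO pup 1 was high for Nid2 (553 CPM). None of these 7 genes passed the test between KO and WT with all pups.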

How the results depend on the processing

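The log2 fold changes of Ecm1, Mmrn2, Spp1, Fndc1 and Slc2a1 kept their sign in all 19 alternative settings, but several lost their call. KO and WT did not overlap for any of these genes, so leaving out pups could hardly have reversed a sign. With the cage of the titles as a term, and within that cage, the KO pups are compared with WT pup 5 alone. In both fits Ecm1 measured 1.13, Mmrn2 0.52 and Spp1 1.47, all without passing. With the cage of the file names, Ecm1 (1.19), Mmrn2 (0.62), Spp1 (1.65), Fndc1 (-1.14) and Slc2a1 (-0.89) did not pass. Spp1 also did not pass with upper-quartile scaling (1.69) or a minimum count of 30 (1.67). Leaving out 1 pup at a time gave 1.09 to 1.26 for Ecm1, 0.52 to 0.59 for Mmrn2, 1.24 to 1.86 for Spp1, -1.33 to -1.11 for Fndc1 and -1.14 to -0.91 for Slc2a1, and only Spp1 lost its call in any of them. Pup numbers 1 to 3 occur in both genotypes, but the numbers mark no shared litter in the labels, and the deviations of same-numbered pups correlated at -0.03, 0.073 and -0.18. A block by pup number thus leaves KO pup 4 and WT pup 5 out of the genotype comparison. With the pup number as a replicate block, Mmrn2 (0.55), Spp1 (1.29), Fndc1 (-1.11) and Slc2a1 (-0.91) did not pass, and 1 of the 40 genes was called higher (Ecm1) and 0 lower, with 7 of those below 0 at an unadjusted p under 0.05.

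Of the 40 genes, 3 were called higher and 1 lower with all pups. With the cage of the titles as a term, and within that cage, 0 were higher (4 at an unadjusted p under 0.05 in each) and 2 lower, and with the cage of the file names 0 and 0 (7 and 4 unadjusted). Lower genes numbered 2 with no filter and 3 in DESeq2, and leaving out 1 pup gave 2 to 3 higher and 1 to 2 lower. Of the further listed genes, 0 were higher and 1 lower with all pups, against 3 and 9 in DESeq2. Lower genes among them numbered 2 with no filter, 2 without KO pup 1 and WT pup 2 together, and 0 with either cage term or the pup-number block. Leaving out 1 pup gave 0 to 1 higher and 0 to 2 lower. For 12 other named genes, 214 of 228 values kept direction and call. Lox turned to 0.11 with the cage of the file names, and Loxl2 to 0.074 with the cage of the titles, 0.075 within it, 0.022 in limma-voom and between -0.30 and 0.039 when leaving out 1 pup. The cause was not tested. Depth limits Itgb3 most, with 35 to 275 counts per library.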
